A study of Mus musculus with 8 samples.

Results

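Axin2, Sox9, Myc, Cd44 and Ephb3 are genes that Wnt signalling switches on in the intestinal crypt, and the DNA around them was examined for methylated stretches in 8 peak lists from sorted mouse small intestinal epithelium. Their regions were chosen by position, as those overlapping 5 intervals of the mm9 build: Axin2 chr11:108760000-108835000, Sox9 chr11:112620000-112670000, Myc chr15:61795000-61845000, Cd44 chr2:102630000-102765000 and Ephb3 chr16:21185000-21245000. Peaks that shared at least 1 bp were merged across the 8 lists into regions, and 105 of the 475861 merged regions overlapped the intervals. They comprised 416 of the 1723486 peaks. Axin2 held 25 regions, Sox9 13, Myc 12, Cd44 38 and Ephb3 17.

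When a Wnt ligand binds its receptor, β-catenin is spared from degradation, enters the nucleus and, with TCF factors, switches on target genes. In the crypt this pathway maintains the Lgr5-expressing stem cells, and its activity falls as cells move onto the villus and differentiate. Methylation of CpG dinucleotides in promoters is generally linked to silencing, whereas the bodies of expressed genes are often methylated.

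The 4 groups had 2 biological replicates each, and all mice were of mixed C57BL/6 CD1 background. The E12.5 and E14.5 groups were EpCAM+CD31−CD45− living cells of the embryonic small intestine, taken at embryonic days E12.5 and E14.5; EpCAM marks epithelium, CD31 endothelium and CD45 blood cells. The adult groups came from Lgr5EGFP-Cre-ERT males at postnatal day 60. Intestinal stem cells (ISC) were the cells with high Lgr5-EGFP, a reporter driven from the Lgr5 locus, and enterocytes were sorted as EpCAM+CD31−CD45− living cells. That enterocyte gate holds no marker of the enterocyte itself and is the gate used for the embryos. The Lgr5 allele is named for the adults only, and whether embryos were pooled is not given in the sources used here. Peak positions do not report expressed markers, so the labelled cell types could not be checked. DNA was captured with a methyl-CpG binding domain (MBD), which binds fragments rich in methylated CpGs, and sequenced.

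Total tags ranged from 31438314 to 55442400 per library, and the lists held 84990 to 338262 peaks. The E12.5 libraries were the deepest and had the shortest lists, with the share of tags in peaks at 23.8% to 38.9% in the 6 later libraries, against 9.84% and 7.46% at E12.5. The fragment length that the authors' caller estimated was shortest in E14.5 replicate 2 (57 bp) and longest in enterocyte replicate 1 (164 bp), and the median peak length was 272 bp and 849 bp in these same libraries. Signal is given as tags in peaks or as RPM, tags in peaks per 1000000 tags of the library. Peaks were called list by list, with no control. A missing peak therefore says only that the tags there did not pass the caller's threshold, and the part of enrichment and fragment length in the differences between groups was not tested.

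CpG density sets what an MBD can capture, and the loci differ in it at their gene starts. The 250 bases before the start of 3 of the 5 genes are shown for this contrast, 5′ to 3′ on the gene's strand, from RefSeq (GRCm38.p6), with each CpG in capitals. They lie at chr11:108920099-108920348 (plus strand), chr2:102901666-102901915 (minus strand) and chr16:21204545-21204794 (plus strand) of that build.
Axin2: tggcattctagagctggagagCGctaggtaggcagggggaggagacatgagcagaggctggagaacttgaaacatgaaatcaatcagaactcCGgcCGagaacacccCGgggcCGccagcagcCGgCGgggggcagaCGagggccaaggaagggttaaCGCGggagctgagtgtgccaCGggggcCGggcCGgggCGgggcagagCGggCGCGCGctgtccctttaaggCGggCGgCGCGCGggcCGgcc
Cd44: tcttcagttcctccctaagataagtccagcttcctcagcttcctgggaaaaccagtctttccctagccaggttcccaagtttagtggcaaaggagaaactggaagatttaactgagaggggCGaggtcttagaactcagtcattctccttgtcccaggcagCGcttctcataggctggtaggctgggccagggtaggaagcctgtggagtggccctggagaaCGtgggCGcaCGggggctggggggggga
Ephb3: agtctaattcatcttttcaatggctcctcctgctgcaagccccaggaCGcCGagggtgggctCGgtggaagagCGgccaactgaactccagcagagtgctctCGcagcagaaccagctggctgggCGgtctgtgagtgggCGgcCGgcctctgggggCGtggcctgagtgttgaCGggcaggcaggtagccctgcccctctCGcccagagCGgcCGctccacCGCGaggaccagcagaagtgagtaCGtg
Axin2 had 24 CpGs, Ephb3 16 and Cd44 5 in this window, against a median of 6 over 32851 promoters of the same length. The core of the TCF site, CTTTGA on either strand, matched in 13.8% of all these promoters and in none of the 3. These positions are of another build than the peaks, so no peak can be set against a promoter, exon or intron here.

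The loci carried many peaks from E14.5 onwards and few at E12.5. E12.5 libraries called 20 and 20 of the 105 regions (19.0% and 19.0%, against 20.6% and 17.4% of all regions), and E14.5 libraries 61 and 72 (58.1% and 68.6%, against 63.1% and 63.2%). ISC called 52 and 60 (49.5% and 57.1%, against 40.8% and 56.5%) and enterocytes 45 and 62 (42.9% and 59.0%, against 34.4% and 47.4%). The shares at E12.5 and E14.5 were thus near those of all regions. Both libraries had a peak in 8 regions at E12.5 (7.62%, against 7.93% of all regions), 49 at E14.5 (46.7%, against 43.7%), 42 in ISC (40.0%, against 31.4%) and 39 in enterocytes (37.1%, against 27.7%). There were 4 regions called in all 8 libraries, or 3.81% against 5.16% of all regions, and these were 2 at Axin2, 1 at Cd44 and 1 at Ephb3. A further 11 had a peak in each of the 6 later libraries and in neither E12.5 library, which is 10.5% against 5.49% of all regions. Of these 11, 5 lay at Cd44, 3 at Myc, 2 at Axin2 and 1 at Sox9. At the other end, 27 regions (25.7%, against 28.1%) were called in 1 library only.

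**Figure D1:**
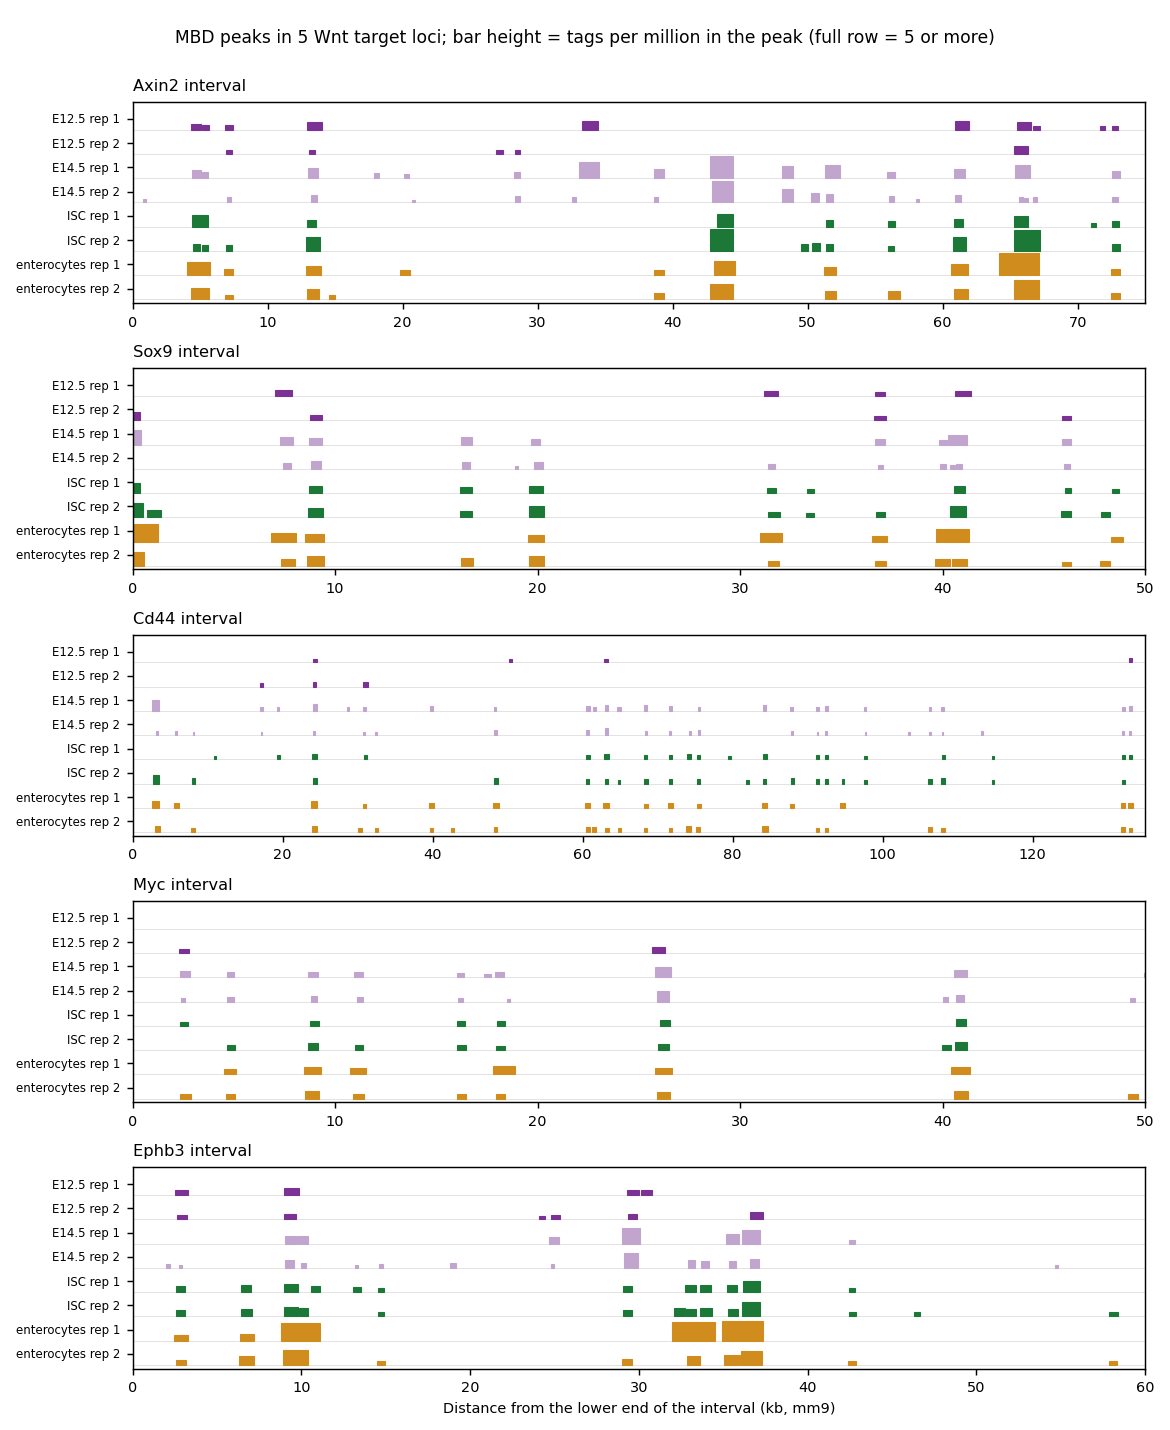
Peaks of the 8 libraries (rows) along the 5 intervals (panels), plotted by distance from the start of each interval in kb, with bars for the peaks of each list. Bar height is the peak's RPM, up to 5. The later rows hold 45 to 77 peaks over the 5 intervals, against 22 and 20 in the E12.5 rows, which are nearly empty at Myc and over much of Cd44. The whole lists hold 164157 to 338262 peaks in the later libraries, against 100314 and 84990 at E12.5.

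**Figure D2:**
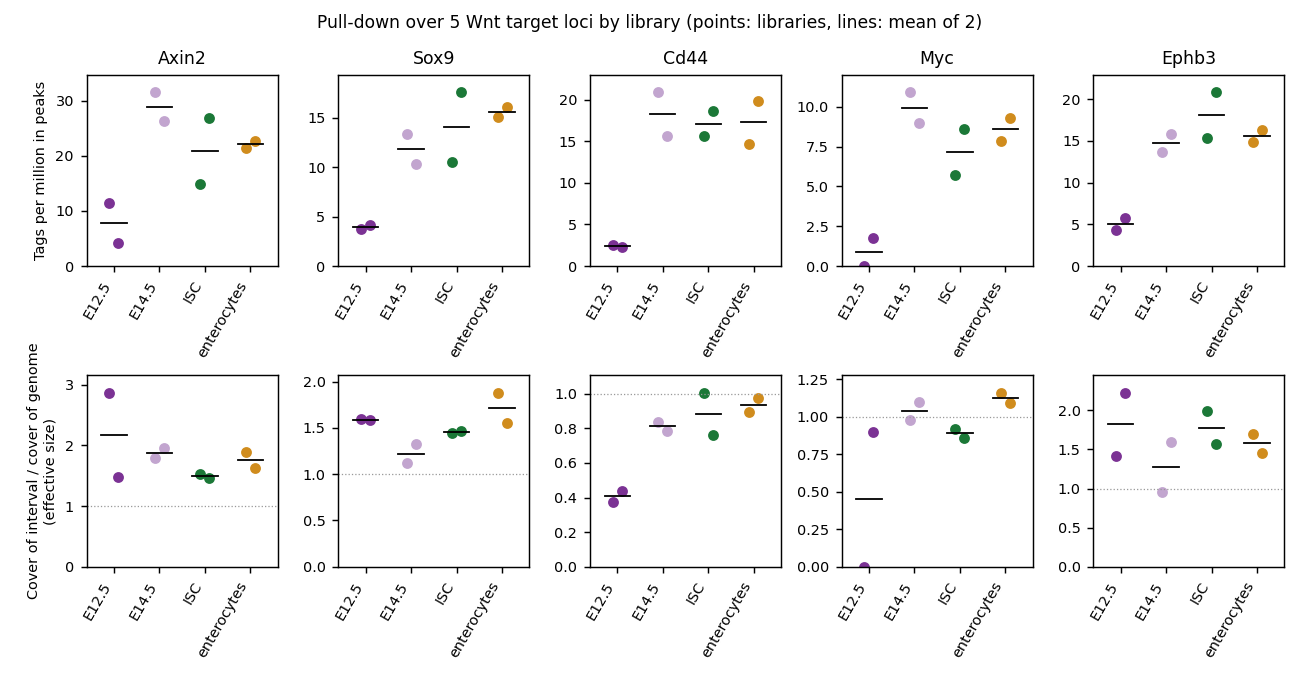
RPM in peaks over each interval (upper panels) and the cover of the interval over that of the genome (lower panels), with 1 point per library and the mean of each group of 2 as a line. In the upper panels all E12.5 points lie below those of the later groups at each of the 5 loci, and in the lower panels they do so at Cd44 alone (0.376 and 0.440).

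Axin2 encodes a scaffold of the complex that degrades β-catenin, and so acts as a feedback inhibitor of the pathway that induces it. Tags in peaks over its 75 kb came to 11.5 and 4.22 RPM at E12.5, 31.6 and 26.3 at E14.5, 14.9 and 26.9 in ISC, and 21.4 and 22.8 in enterocytes. Both E12.5 libraries were the lowest, the E14.5 replicates spanned a range that overlapped that of ISC, and ISC replicate 1 lay between the E12.5 and enterocyte libraries. Peaks covered more of this interval than of the genome in every library, at 1.46 to 2.87 times the share that the whole list covered.

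The widest region of the locus, chr11:108824180-108827192, was called in all 8 libraries. It had 121 and 92 tags (2.19 and 1.66 RPM) at E12.5, 99 and 100 (2.86 and 2.87) at E14.5, 78 and 154 (2.41 and 4.90) in ISC, and 220 and 175 (5.08 and 4.47) in enterocytes. E12.5 was lowest and enterocytes were high in both replicates, with ISC replicate 2 between the enterocyte values. The other region called throughout, chr11:108772844-108774044, had 1.68 and 0.613 RPM at E12.5, 2.23 and 1.46 at E14.5, 1.39 and 3.12 in ISC, and 2.01 and 2.27 in enterocytes, and there no groups separated except enterocytes from E12.5.

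Between these, chr11:108802754-108804655 had no peak at E12.5, 181 and 171 tags at E14.5 (5.24 and 4.90 RPM), 92 and 163 in ISC (2.84 and 5.18), and 136 and 134 in enterocytes (3.14 and 3.42). It is 1 of the 5 Axin2 regions called in both E14.5 and neither E12.5 libraries, and E14.5 exceeded enterocytes in both replicates but not ISC. The next region above it, chr11:108808092-108808941, had a peak in both E14.5 libraries, of 96 and 108 tags (2.78 and 3.10 RPM), and in no other library. The nearest ISC peak lay 584 bases away with 45 tags, and the nearest E12.5 peak lay 11995 bases away. In the region chr11:108798597-108799358, E14.5 had 68 and 40 tags and enterocytes 39 and 49, with no peak in ISC or at E12.5. By the authors' score, the replicate 1 peaks there ranked above only 2.13% (E14.5) and 0.478% (enterocytes) of their lists. The replicate 2 peaks ranked above 32.7% and 52.6%.

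A stretch of 18.1 kb, chr11:108780551-108798614, held no peak in any of the 4 adult libraries and at least 1 in each embryonic library; it was picked after its values were seen. E12.5 replicates had 1 peak of 107 tags and 2 peaks of 74 tags in sum, and E14.5 replicates 2 peaks of 166 and 3 of 96. The embryonic peaks were not the same ones throughout: chr11:108788289-108788716 was called at E12.5 replicate 2 (35 tags) and in both E14.5 libraries (42 and 47), and chr11:108793080-108794512 in replicate 1 of each stage (107 and 124). Over the whole locus, 10 of the 25 regions had an embryonic and no adult peak. The 5 loci together had 24 of 105 such regions, or 22.9%, against 25.2% of all regions, and Sox9 had 1, Myc 2, Cd44 5 and Ephb3 6. The Axin2 count was read after the fact and carries no test.

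Sox9 encodes an HMG-box transcription factor of the crypt base that is needed for Paneth cells to form. Its 50 kb held 3.73 and 4.15 RPM in peaks at E12.5, 13.4 and 10.4 at E14.5, 10.5 and 17.6 in ISC, and 15.1 and 16.1 in enterocytes. The E12.5 values lay below all others, the E14.5 and ISC ranges overlapped, and both enterocyte libraries exceeded both E14.5 libraries. Relative to the whole lists the interval was covered 1.12 to 1.88 times as densely in the later libraries and 1.59 and 1.58 times at E12.5, so the stages overlapped on that scale.

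The region with the highest values, chr11:112619125-112621408, overlaps its lower edge. It had no peak in E12.5 replicate 1 and 93 tags in replicate 2, 115 and 43 tags at E14.5, 66 and 144 in ISC, and 173 and 117 in enterocytes. The replicates of E14.5 and of ISC differed more from each other than the group means did. Region chr11:112639523-112640341 was the locus's 1 region called in all 6 later libraries and in neither E12.5 library, with 38 and 49 tags at E14.5, 49 and 77 in ISC and 60 and 78 in enterocytes. The nearest E12.5 peak lay 10178 bases away. Region chr11:112659645-112661411 had 56 tags in E12.5 replicate 1 and no peak in replicate 2, 98 and 79 tags at E14.5, 45 and 74 in ISC, and 119 and 107 in enterocytes. In RPM, both enterocyte values (2.75 and 2.73) lay above both ISC values (1.39 and 2.35) there and within the range of E14.5 (2.84 and 2.26). Region chr11:112636183-112636796 was called in both E14.5 (51 and 44 tags) and both ISC libraries (36 and 41) and in enterocyte replicate 2 (63), and not at E12.5.

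Stem cells differed in presence at 2 Sox9 regions. At chr11:112626860-112628047 E12.5 replicate 1 had 60 tags, E14.5 had 51 and 37, and enterocytes had 80 and 50, whereas neither ISC library had a peak. The nearest ISC peak lay 630 bases away, with 62 tags in replicate 2. Conversely, chr11:112653275-112653673 was called in both ISC libraries (24 and 22 tags) and nowhere else, with an enterocyte peak 1223 bases away. Both ISC peaks there had few tags. By the authors' score they ranked above 52.2% (replicate 1) and 21.2% (replicate 2) of the peaks in their lists. No library had a peak in the 10.7 kb of chr11:112640342-112650995.

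Myc encodes a transcription factor that drives growth and proliferation of crypt progenitors. E12.5 replicate 1 had no peak in the 50 kb around it and replicate 2 had 2, of 40 and 59 tags (1.79 RPM in sum). E14.5 had 10 peaks in each library (10.9 and 8.97 RPM), ISC 6 and 8 peaks (5.74 and 8.62) and enterocytes 6 and 9 (7.87 and 9.30). Both E14.5 values exceeded both ISC values, and enterocytes overlapped each of them. Of its 12 regions, 7 were called in both E14.5 and neither E12.5 libraries, a pattern held by 23.9% of all regions. All 12 had a peak in an E14.5 library, as did 82.6% of all regions. No Myc region had an adult and no embryonic peak, against 13% of all regions.

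Region chr15:61820639-61821632 held the highest Myc values. It was absent in E12.5 replicate 1 and had 59 tags in replicate 2 (1.06 RPM), 78 and 83 tags at E14.5 (2.26 and 2.38), 39 and 38 in ISC (1.203 and 1.209), and 53 and 51 in enterocytes (1.22 and 1.30). E14.5 stood above all other libraries here, and the replicates of each later group lay close together. Region chr15:61835436-61836342 had no E12.5 peak, and its 53 and 43 tags at E14.5, 40 and 52 in ISC and 66 and 61 in enterocytes gave 1.23 to 1.65 RPM, with the 3 groups overlapping. A pair of weaker regions was absent from both E12.5 libraries. At chr15:61803460-61804321 there were 37 and 34 tags at E14.5, 29 and 44 in ISC, and 64 and 62 in enterocytes. At chr15:61799507-61800110 there were 31 and 32 at E14.5, no peak and 26 in ISC, and 38 and 28 in enterocytes. Enterocytes had the highest RPM of the 3 groups at the first of these (1.48 and 1.58), and at the second the called values spanned only 0.715 to 0.917. At the upper edge of the interval, chr15:61844946-61845361 had 28 and 21 tags at E14.5 and no peak elsewhere. Between the regions at 61820639 and 61835436, 13.3 kb (chr15:61821633-61834944) was free of peaks in all 8 libraries.

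Cd44 encodes a cell surface receptor for hyaluronan that marks crypt cells. Its 135 kb held the most regions, 38, and the sparsest E12.5 signal apart from Myc. There were 4 and 3 peaks at E12.5 (2.52 and 2.27 RPM), 24 and 24 at E14.5 (20.9 and 15.6), 19 and 21 in ISC (15.6 and 18.6), and 16 and 23 in enterocytes (14.7 and 19.8). The 3 later groups overlapped, and all 6 of their libraries lay well above E12.5. No E12.5 peak fell in the 69.4 kb of chr2:102693396-102762798, where each other library had 7 to 15 peaks. It was picked as the locus's longest stretch without an E12.5 peak, so that absence was fixed by the choice. Each other locus had such a stretch as well, of 21.8 to 26.4 kb.

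Set against the cover of the whole list, Cd44 was sparse in both E12.5 libraries and Myc in replicate 1 alone. Peaks covered the Cd44 interval 0.758 to 1.01 times as densely as the genome in the later libraries, against 0.376 and 0.440 times at E12.5. At Myc the figure was 0.862 to 1.16 in the later libraries, against 0 and 0.899 at E12.5, so replicate 2 lay within the later range. Axin2, Sox9 and Ephb3 gave 1.42 to 2.87 at E12.5. These ratios describe 5 intervals and carry no test. When each list was limited to its 84990 highest-scoring peaks, Cd44 kept 3 and 3 at E12.5, 5 and 4 at E14.5, 9 and 2 in ISC, and 3 and 6 in enterocytes, so E14.5 remained above E12.5 and the adult groups overlapped both.

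Individual Cd44 regions were weak, with 13 to 81 tags per peak. The 1 region called throughout, chr2:102653819-102654598, had 35 and 46 tags (0.634 and 0.830 RPM) at E12.5, 48 and 21 (1.39 and 0.602) at E14.5, 37 and 32 (1.14 and 1.02) in ISC, and 57 and 46 (1.32 and 1.18) in enterocytes. E14.5 replicate 1 was the highest and replicate 2 the lowest, so all groups lay within the E14.5 spread. Region chr2:102692740-102693500 was called in 7 libraries, with 35 tags and no peak at E12.5, 42 and 47 tags at E14.5, 33 and 28 in ISC, and 43 and 33 in enterocytes, and E14.5 was highest in RPM (1.22 and 1.35). Region chr2:102744532-102744831 was called in both ISC libraries only, with 17 and 18 tags, and chr2:102727483-102727893 had 19 and 13 tags at E14.5, 20 and 20 in ISC and no enterocyte or E12.5 peak. Peaks of the latter ranked low by the authors' score, above 16.4% and 2.23% of their lists at E14.5 and 0.779% and 21.0% in ISC. Region chr2:102669493-102670149 had 28 tags in E14.5 replicate 1 and 36 and 30 in enterocytes, with no ISC peak within 8053 bases. Above the ISC region, 16.9 kb (chr2:102744832-102761762) was empty in all 8 libraries.

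Ephb3 encodes a receptor tyrosine kinase for B-type ephrins that holds Paneth cells at the crypt base. Its 60 kb had 4.34 and 5.74 RPM at E12.5, 13.7 and 15.8 at E14.5, 15.3 and 20.9 in ISC, and 14.9 and 16.3 in enterocytes. Again E12.5 lay below every later library and the later groups overlapped. It was the 1 locus of the 5 with no region called in both E14.5 and neither E12.5 libraries, a pattern held by 23.9% of all regions.

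The locus held the 1 region of the 105 that was present in all 4 adult and absent from all 4 embryonic libraries, chr16:21191330-21192182. ISC had 45 and 50 tags (1.39 and 1.59 RPM) and enterocytes 59 and 70 (1.36 and 1.79). The nearest embryonic peak lay 1772 bases away, with 75 tags in E12.5 replicate 1. Just above it, chr16:21193805-21196124 was called in all 8, with 1.36 and 1.08 RPM at E12.5, 3.07 and 2.49 at E14.5, 2.87 and 3.79 in ISC, and 3.88 and 3.37 in enterocytes. E12.5 was lowest and enterocytes exceeded E14.5 in both replicates.

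Region chr16:21214004-21215084, named here after its values were seen, was highest at E14.5. It held 57 and 53 tags (1.03 and 0.956 RPM) at E12.5, 122 and 112 (3.53 and 3.21) at E14.5, 38 and 40 (1.17 and 1.27) in ISC, and no peak and 41 tags (1.05) in enterocytes. In RPM both E14.5 libraries stood far above the other 6, whose values lay within 0.956 to 1.27 where a peak was called. The log2 fold changes tested below were smaller when tags were scaled by the length that each library's peaks cover. That of E14.5 against E12.5 went from 1.04 to 0.32, and that of ISC against E14.5 from −1.57 to −0.50. Region chr16:21219939-21222372 had another pattern, with no peak and 86 tags at E12.5, 180 and 110 at E14.5, 121 and 151 in ISC, and 191 and 200 in enterocytes. Below the E14.5-high region, 14.04 kb (chr16:21199962-21214003) had no adult peak, and was picked as the locus's longest such stretch. There E12.5 replicate 2, E14.5 replicate 1 and E14.5 replicate 2 had 70, 42 and 48 tags in peaks, and E12.5 replicate 1 had none. Of these tags, 46 in E12.5 replicate 2 and 42 and 19 at E14.5 lay in chr16:21209687-21210343. Region chr16:21216935-21219492 had peaks in 5 libraries, with 104 tags in E14.5 replicate 2, 87 and 157 in ISC, and 180 and 69 in enterocytes, and none in E14.5 replicate 1 or at E12.5.

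**Figure D3:**
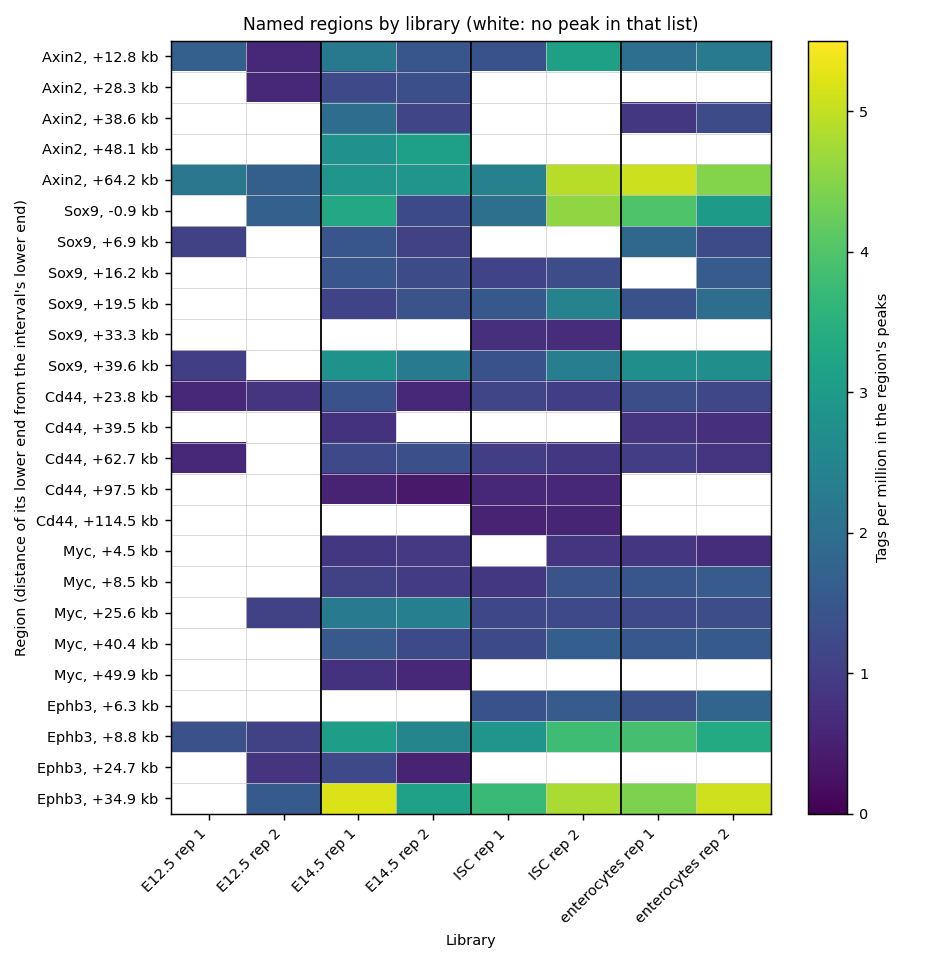
Heat map of RPM in 25 regions chosen by rule (rows, labelled by locus and distance in kb from the interval's lower end) and the 8 libraries (columns), with white where a list has no peak. The E12.5 columns are mostly white or dark, and the Ephb3 region whose row is white in all 4 embryonic columns has 1.36 to 1.79 in the adult ones. The rule took in regions for lacking peaks in a group compared, this Ephb3 region among them, so those white cells were fixed by the choice.

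E14.5 was compared with E12.5 first, the stages around which villi begin to form. Of the 105 regions, 27 (25.7%) were called in both E14.5 and neither E12.5 libraries, against 23.9% of all regions, and 0 were called the other way round, against 0.276%. The share in the 5 loci was thus near that of the genome, but the loci were uneven: 13 of 38 at Cd44, 7 of 12 at Myc, 5 of 25 at Axin2, 2 of 13 at Sox9 and 0 of 17 at Ephb3. The count was 47 without E14.5 replicate 1 (41% of all regions). Without E14.5 replicate 2 or either E12.5 library, 2 or 3 regions were called at E12.5 and not E14.5 (0.573% to 2.61% of all). With the lists held to equal length, the loci had 54 regions. Of these, 3 were called at E14.5 and not E12.5 (5.39% of all regions) and 1 the other way round (3.58%). Myc averaged 9.95 ± 1.39 RPM at E14.5 and 0.893 ± 1.26 RPM at E12.5 (SD, n = 2 each), where 1 library supplied the whole E12.5 value. Cd44 averaged 18.3 ± 3.74 RPM at E14.5 and 2.39 ± 0.172 RPM at E12.5. These are 11.1-fold at Myc and 7.63-fold at Cd44, and Axin2 was 3.68-fold, Sox9 3.01-fold and Ephb3 2.92-fold higher, beside 3.91-fold for all peaks of the lists, with no test. With tags in peaks as the total, Cd44 stayed higher at E14.5 (log2 ratio 0.94), while Axin2, Sox9 and Ephb3 turned lower (−0.015, −0.41 and −0.44). Myc had a log2 ratio of 1.30 on that scale, from an E12.5 mean that includes replicate 1, which had no peak there.

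Tags could be tested where every library compared had a peak, which left 6 regions of the loci and 32490 of all regions. In edgeR's quasi-likelihood test none of the 6 passed an adjusted p of 0.05 (Benjamini-Hochberg over all regions tested), and neither did any of all regions (0% called higher at E14.5 and 0% lower). At an unadjusted p under 0.05 there were 2 of the 6 and 4956 of all, and DESeq2 called 0 of the 6 and 167 higher and 25 lower of all. The Ephb3 region chr16:21214004-21215084 came closest, with a log2 fold change of 1.04 (SE 0.32, edgeR adjusted p = 0.168). With tags scaled by the length that each library's peaks cover, that region had 0.32 (edgeR adjusted p = 0.999967). The Sox9 region chr11:112656512-112657245, with 35 and 18 tags at E14.5 and 39 and 47 at E12.5, had −0.77 (SE 0.32, edgeR adjusted p = 0.283). The median log2 fold change of the 6 was −0.08 and that of all regions −0.01, since the scaling centres on shared regions. Scaled by total tags instead, the median of all regions was 0.71, 12.8% of all were called higher at E14.5, and the Ephb3 region passed (log2 fold change 1.76, edgeR adjusted p = 0.0311). Without E14.5 replicate 1, the Ephb3 region chr16:21187450-21188293, with 16 tags in E14.5 replicate 2 against 57 and 49 at E12.5, was called lower (−1.59, edgeR adjusted p = 0.0247). It was 1 of 8 regions of the loci tested then, beside 4.19% of all regions called lower, and the lone E14.5 library is assumed to vary like the E12.5 pair.

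ISC set against E14.5 asks what separates the adult stem cell from the fetal epithelium. There were 3 regions (2.86%, against 1.91% of all) called in both ISC and neither E14.5 libraries. They were the adult-only region at Ephb3 and the ISC-only regions at Cd44 and Sox9. The opposite pattern, E14.5 and not ISC, held for 7 regions (6.67%, against 6.69%), 3 of them at Axin2 and 1 at each other locus. Both shares were close to the background. Leaving out any 1 of the 4 libraries gave 6 to 9 regions called in ISC alone (4.33% to 8.03% of all regions), and 10 to 20 called at E14.5 alone (9.53% to 18.1%).

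Of the 32 regions of the loci shared by ISC and E14.5, none passed edgeR's test at an adjusted p of 0.05, as none did among all 113194 (0% in either direction). Unadjusted p was under 0.05 in 4 of the 32 and in 6522 of all, and DESeq2 called 0 of the 32 and 21 higher and 4 lower of all. The Ephb3 region chr16:21214004-21215084 had the largest difference, a log2 fold change of −1.57 in ISC (SE 0.30, unadjusted p = 0.00037, edgeR adjusted p = 0.608). This comparison and the one of E14.5 with E12.5 share the E14.5 libraries. The Myc region chr15:61820639-61821632 had −1.05 (SE 0.32, edgeR adjusted p = 0.693), the Axin2 region chr11:108811191-108812390 −0.81 (edgeR adjusted p = 0.805) and the Cd44 region chr2:102737766-102738322 0.75 (edgeR adjusted p = 0.789). These 4 regions were picked by their unadjusted p in this same test. That their ISC and E14.5 replicates did not overlap in RPM therefore adds no support. With tags scaled by the length that each library's peaks cover, all 4 log2 fold changes were smaller. They were −0.50 for the Ephb3, −0.26 for the Myc, −0.11 for the Axin2 and 0.44 for the Cd44 region. The median over the 32, as first scaled, was 0.03, beside −0.0049 for all regions.

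Enterocytes set against ISC address differentiation in the adult. The labels describe dissociating the crypt fraction and do not make clear whether enterocytes were sorted from it or from the villi. Presence separated them at 3 regions called in enterocytes and not ISC (2.86%, against 1.28% of all), 1 each at Axin2, Sox9 and Cd44, and at 3 called in ISC and not enterocytes (2.86%, against 3.85%), 2 at Cd44 and 1 at Sox9. Each of the 6 is described with its locus above. In each, the lower-scoring of the 2 libraries had a peak ranked above no more than 23.1% of its list. Leaving out 1 library at a time, which loosens the requirement, gave 4 to 9 (2.48% to 6.9% of all regions) and 3 to 13 (5.79% to 15.2%). None of the 29 regions tested passed edgeR's adjusted p of 0.05, nor did any of 94116 (0% in either direction). None of the 29 had an unadjusted p under 0.05, against 4751 of all, and DESeq2 called 0 of the 29 and 0 of all. Their log2 fold changes ran from −0.42 to 0.51, with a median of 0.03.

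The 4 adult and the 4 embryonic libraries differed at 1 region of the 105 in presence, the Ephb3 region chr16:21191330-21192182 (0.952%, against 0.402% of all), and 0 regions were embryonic alone (against 0.139%). There were 2 adult-only regions without E14.5 replicate 1 (1.12% of all) or without E14.5 replicate 2 (0.925%), and 3 embryonic-only ones without E12.5 replicate 1 (0.428%). In RPM, Sox9 was 1.88-fold, Ephb3 1.70-fold, Cd44 1.66-fold, Myc 1.45-fold and Axin2 1.17-fold higher in adults, beside 1.44-fold for all peaks, with no test. In that order the log2 ratios were 0.91, 0.77, 0.73, 0.54 and 0.22. Their SEs, from the spread of the libraries on each side, were 0.46, 0.43, 0.67, 0.72 and 0.53. The embryonic side spans the low E12.5 and high E14.5 values, and the Axin2 log2 ratio of 0.22 turned to −0.11 without E12.5 replicate 2. With tags in peaks as the total, the log2 ratios were −0.29 at Axin2, 0.26 at Sox9 and 0.089 at Ephb3, and the higher-scoring 50% of each list gave −0.0074 at Myc. Of the 4 regions called throughout, none passed edgeR's adjusted p of 0.05, against 0.159% of 24563 regions called higher and 0.0489% lower. Unadjusted p was under 0.05 for 1 of the 4 and for 2908 of all, and DESeq2 called 0 of the 4 and 219 higher and 45 lower of all. That 1 was the Ephb3 region chr16:21193805-21196124, with a log2 fold change of 0.42 (SE 0.18, edgeR adjusted p = 0.386). Scaled by total tags, the median of all regions was 0.49 and 15% were called higher in adults, among them this region (0.91, edgeR adjusted p = 0.0284) and the widest Axin2 region (0.83, edgeR adjusted p = 0.0484).

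**Figure D4:**
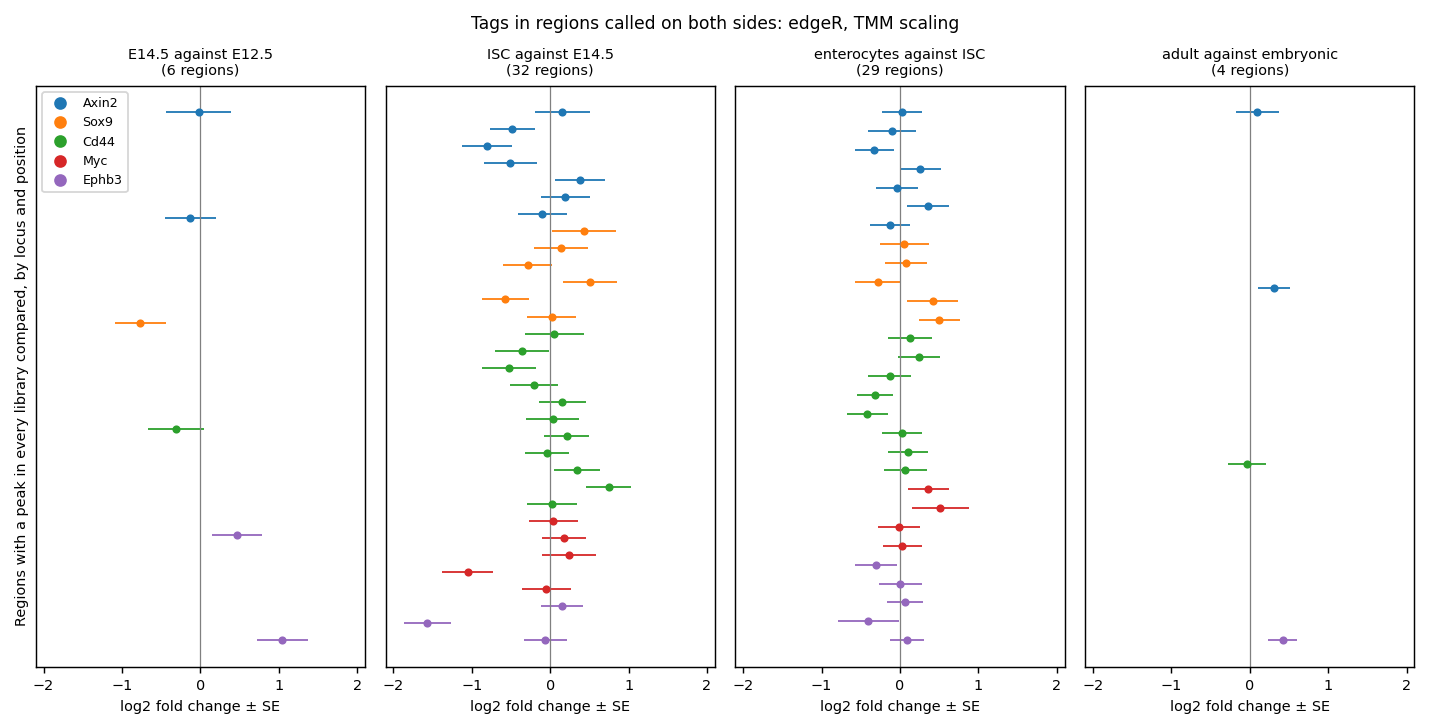
Log2 fold changes of the regions of the 5 loci that were called in every library compared (points, with SE bars, edgeR), in 1 panel for each of the 4 comparisons. The regions scatter around 0, and the Ephb3 region at 1.04 and −1.57 is the farthest from it in the first and the second comparison.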

How the data were processed

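MBD pull-down was measured in 8 libraries, 2 in each of 4 groups. The tools named in the submitters' processing notes are Bowtie 1.1.2, SAMtools 1.2 and bcl2fastq 1.8.4, with mm9 as the build. MACS 1.4.2 made each list from 1 library with no control, at a p cutoff of 1e-05, per the file headers. The whole-number tag count per peak is not normalized, as the authors deposited it. The score (from the −log10 of the caller's p-value) and the fold ratio per peak are the authors' values, deposited per the file headers, and the score was used only to rank peaks within a list. Start and end positions were used as deposited in mm9, and peaks that crossed an interval's edge were kept whole.

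Peaks sharing at least 1 bp were merged over all 8 lists (Python 3.11.15, pandas 2.3.3, numpy 2.4.6, matplotlib 3.10.9). RPM is tags in peaks per 1000000 total tags of the header. Presence counts regions with a peak in every library of one side and none of the other, without a test over replicates. Tags were tested with edgeR 4.0.16 (R 4.3.3) by its quasi-likelihood test with TMM scaling, only in regions called in every library compared, with Benjamini-Hochberg adjustment over all such regions and a threshold of 0.05. DESeq2 1.42.0 was an alternative, as was edgeR with tags scaled by the length that each library's peaks cover in the region. The test was also run on simulated counts with the same spread between replicates in every region. That simulation lacks the differences in enrichment and fragment length between these libraries, so it cannot tell how the test behaves on them. p-values measure the spread between 2 biological replicates per group, and depth was 31438314 to 55442400 tags per library.

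The members and lists were chosen with earlier results of these data known. The regions named by rule were those called in most libraries, with the highest values, and those with the highest scores among regions that separated the groups of a comparison. Others described, among them chr11:108802754-108804655 and chr16:21216935-21219492, were named outside this rule with their values known. No mm9 annotation was used here, so regions are given by position, and other genes of the Wnt pathway were not analysed here.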

Additional observations from a re-analysis of the deposited data

How the results depend on the processing

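Percentages here are shares of all regions under the same setting. With lists of equal length the loci had 54 regions, of which 3 were at E14.5 and not E12.5 (5.39%) and 1 the reverse (3.58%), 1 at E14.5 and not ISC (2.98%), 1 in enterocytes and not ISC (2.88%), and 0 in adults alone (0.638%). The counts in ISC and not E14.5 (3.23%) and in ISC and not enterocytes (2.31%) were 3 each. The full lists gave the same counts, but of 105 regions rather than of 54. With the higher-scoring 50% of each list the loci had 68 regions, of which 1 was at E12.5 and not E14.5 (0.378%), 0 in enterocytes and not ISC (1.53%), 6 in ISC and not enterocytes (3.7%), and 0 in adults alone (0.469%). Where peaks had to cover 50% of a region, the counts of 105 were 9 at E14.5 (10.2%) and 2 at E12.5 (0.674%), 3 at E14.5 and not ISC (3.89%), and 5 in enterocytes and not ISC (3.18%). Merging within 500 bp gave 2 adult regions of 85 (0.371%). Leaving out 1 library gave 33 to 47 regions at E14.5 (29.4% to 41%) and 0 to 3 at E12.5 (0.573% to 2.61%), 6 to 9 in ISC (4.33% to 8.03%) and 10 to 20 at E14.5 (9.53% to 18.1%), 4 to 9 in enterocytes (2.48% to 6.9%) and 3 to 13 in ISC (5.79% to 15.2%), and 1 to 2 in adults (0.431% to 1.12%) and 0 to 3 in embryos (0.156% to 0.505%).

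The log2 ratios of RPM for E14.5 against E12.5 were 0.64 at Axin2, 0.99 at Sox9, 1.43 at Cd44 and 0.82 at Ephb3 with equal lists, and 2.60 at Sox9 and 3.17 at Cd44 with the higher-scoring 50%. With tags in peaks as the total they were −0.015 at Axin2, −0.41 at Sox9, 0.94 at Cd44, 1.30 at Myc and −0.44 at Ephb3. For adult against embryonic that total gave −0.29 at Axin2, 0.26 at Sox9 and 0.089 at Ephb3, and the higher-scoring 50% gave −0.0074 at Myc. Without 1 library at a time, a setting added after seeing the data, E14.5 against E12.5 ran from 1.33 to 2.78 at Axin2, 1.397 to 1.76 at Sox9, 2.71 to 3.13 at Cd44, 2.48 to 3.61 at Myc and 1.36 to 1.76 at Ephb3. Myc has no ratio without E12.5 replicate 2, since replicate 1 has no peak there. Adult against embryonic ran from −0.11 to 0.62 at Axin2, 0.68 to 1.29 at Sox9, 0.40 to 1.34 at Cd44, 0.12 to 1.14 at Myc and 0.52 to 1.09 at Ephb3. The cause was not tested.

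In the tag test, library totals gave 1 region higher at E14.5 than at E12.5 and 2 higher in adults. Leaving out a library gave 0 to 1 regions lower at E14.5 and 0 in the other directions. Differences between replicates correlated weakly between groups, at −0.017 to 0.067, over the 24563 regions called in every library. Whether replicate numbers pair the libraries in other regions was not tested. With the replicate as a block, 458 regions were called higher and 549 lower at E14.5 among all regions, 7 and 0 in ISC against E14.5, 0 and 0 in enterocytes against ISC, and 17 and 9 in adults, with 0 in the 5 loci. What depth limits is the lower end: a region whose tags did not pass the caller's threshold has no value.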
